A study of Mus musculus with 9 samples.

Results

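CTCF peaks called in pre-B cells were compared with CTCF peaks called in pro-B cells that had been cultured for 7 days with IL7. The members are all deposited CTCF peaks of these 2 cell types on chromosomes 1 to 19 outside the antigen receptor loci, which were left out with 100 kb on either side. This left 40815 of 42250 pre-B peaks and 68646 of 71080 IL7-cultured pro-B peaks, together 109461 of the 190262 peaks in the 5 lists of the series. Pro-B cells came from bone marrow of RAG1-/- mice, and the cultured cells were grown in medium with supernatant of J558 cells expressing IL7. Pre-B cells came from bone marrow of RAG-/- µ+ mice, which carry a rearranged IgM transgene. All donors were C57BL/6 mice of both sexes, 6 to 14 weeks old. Both cell types lack RAG recombinase and therefore cannot rearrange their receptor genes. Rad21 peaks of the same pre-B cells, and of DN (CD4-CD8-) thymocytes of Rag1-/- mice and DP (CD4+CD8+) thymocytes of Rag1-/- mice with a rearranged TCRb transgene, served as a further readout. Thymocyte donors were 4 to 8 weeks old.

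Each condition has 1 library, so no test between the cell types was possible. Intervals in the text are exact 95% Clopper-Pearson intervals and cover counting error only. The developmental stage, the culture with IL7, the transgene and the library itself cannot be told apart. The files used here hold no expression values, so the cell identities were not checked against marker transcripts. Read depth is unknown for both lists.

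CTCF is a zinc-finger protein that binds a long, GC-rich sequence and, at many of its sites, halts the ring-shaped cohesin complex, of which Rad21 is a subunit. Pairs of such sites anchor chromatin loops and separate neighbouring regulatory domains. CTCF sites near promoters and enhancers are known to shape which of them contact each other in lymphocyte precursors. IL7 is the main growth cytokine of mouse pro-B cells, and the pre-B cell receptor, made from the µ heavy chain and the surrogate light chain, drives the step to the pre-B stage.

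The sequences that carry the comparison are shown first. The CTCF consensus listed by the study was searched in 2 forms of 12 bases, GCCCCCTAGTGG and GCCCCCTGGTGG, on both strands of each peak. These lines give the closest matches in the 3 best-ranked shared sites and in the 3 best-ranked peaks of either list that had no partner in the other list. Capitals mark the 12 bases closest to the consensus, with 40 bases on either side, in mm9.
Olfr94 (chr17:37340723-37340814, plus strand): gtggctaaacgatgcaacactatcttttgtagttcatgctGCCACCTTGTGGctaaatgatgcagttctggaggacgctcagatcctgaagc
Pik3c2b (chr1:134936126-134936217, minus strand): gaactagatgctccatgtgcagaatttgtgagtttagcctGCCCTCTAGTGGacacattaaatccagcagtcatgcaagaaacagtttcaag
Exoc1 (chr5:76994481-76994572, minus strand): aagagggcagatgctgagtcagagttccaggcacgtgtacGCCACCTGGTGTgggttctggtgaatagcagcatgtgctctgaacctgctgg
Lmo4 (chr3:143612168-143612259, plus strand): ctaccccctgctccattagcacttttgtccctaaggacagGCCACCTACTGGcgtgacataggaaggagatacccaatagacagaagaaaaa
Mef2c (chr13:83748476-83748567, plus strand): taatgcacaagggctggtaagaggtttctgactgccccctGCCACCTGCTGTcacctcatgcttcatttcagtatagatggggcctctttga
Fstl3/Prss57 (chr10:79244883-79244974, minus strand): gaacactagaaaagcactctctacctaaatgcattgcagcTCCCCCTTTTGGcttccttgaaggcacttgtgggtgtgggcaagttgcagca
Cacna1a (chr8:87163264-87163355, plus strand): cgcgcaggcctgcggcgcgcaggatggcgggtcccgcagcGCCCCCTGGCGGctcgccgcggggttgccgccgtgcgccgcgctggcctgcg
Slc22a3 (chr17:12697364-12697455, plus strand): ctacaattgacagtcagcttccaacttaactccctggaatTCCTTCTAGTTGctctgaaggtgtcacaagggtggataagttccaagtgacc
Fam102b (chr3:108830316-108830407, minus strand): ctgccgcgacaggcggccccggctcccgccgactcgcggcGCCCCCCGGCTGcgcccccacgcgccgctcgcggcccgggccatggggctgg
The shared sites near Olfr94, Pik3c2b and Exoc1 differed from the consensus at 2, 1 and 2 bases. The pre-B-only peaks at Lmo4, Mef2c and Fstl3/Prss57 differed at 2, 3 and 3 bases. The IL7-only peaks at Cacna1a, Slc22a3 and Fam102b differed at 1, 4 and 3 bases. GC content of the stretches shown for Cacna1a and Fam102b was 84.8% and 87.0%, whereas the other 7 lay between 43.5% and 56.5%. The Cacna1a stretch held 18 CpG dinucleotides and the Fam102b stretch 17, and no other stretch held more than 2.

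Nearly all pre-B peaks were also found in the IL7-cultured pro-B cells. Of the 40815 pre-B peaks, 39172 overlapped an IL7-cultured pro-B peak by 1 bp or more (96.0%, 95.8 to 96.2). The remaining 1643 peaks, 4.03% of the list, are called pre-B-only here. The IL7-cultured list was longer, and 40235 of its 68646 peaks overlapped a pre-B peak (58.6%, 58.2 to 59.0). The other 28411, or 41.4%, are called IL7-only. When the IL7-cultured list was limited to its 40815 top-scoring peaks, which removed every peak under a score of 193.45, the shares of the 2 lists had to become nearly equal, since most overlaps pair 1 peak with 1 peak. Then 84.8% of pre-B peaks (84.4 to 85.1) and 85.4% of IL7-cultured peaks (85.1 to 85.8) were shared, which left 6213 pre-B-only peaks (15.2%) and 5939 IL7-only peaks (14.6%).

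Overlap depended on the rank of a peak within its own list. Scores rise with read depth, which is unknown here, so they served to order peaks within a list, and a position is given as the percentage of the list that a peak outscored. The 10000 best-scoring pre-B peaks were all shared, and so were 9967 of the 10000 best-scoring IL7-cultured peaks (99.7%, 99.5 to 99.8). In the lowest-scoring decile, 81.2% of pre-B peaks (79.9 to 82.4) and 10.8% of IL7-cultured peaks (10.1 to 11.6) were shared. With lists of equal length these values were 43.9% (42.3 to 45.4) and 45.1% (43.5 to 46.6). The strongest pre-B-only peak outscored 72.3% of the pre-B list and the median one 10.8%. The strongest IL7-only peak outscored 99.2% of its list and the median one 23.9%. Among the 10000 best of either list, 0 pre-B peaks and 33 IL7-cultured peaks were thus unpaired. With equal lengths the strongest pre-B-only peaks were those in introns of Ranbp17, with 84.1%, and Foxp1, with 83.0%, and 1 beside Gpt2, with 81.1%. The best-ranked 8 of these included the promoter of Irs1, a docking protein of insulin receptor signalling, with 73.6%, and all 8 overlapped a pre-B Rad21 peak. The Foxp1 and Ranbp17 sites had a weaker partner in the whole IL7-cultured list, which outscored 27.0% and 40.2% of it.

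**Figure D1:**
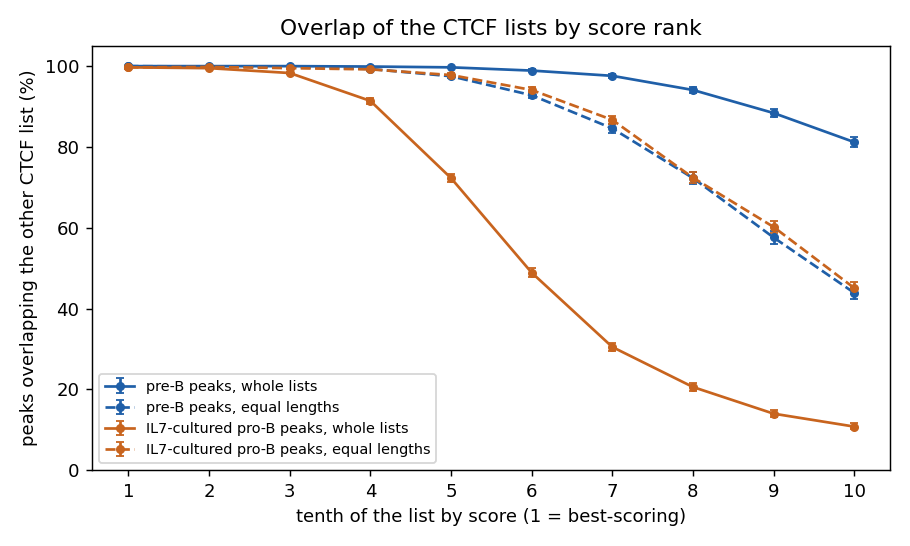
Share of CTCF peaks (y axis, %) that overlapped the other CTCF list, for each decile of a list by score (x axis, 1 is the best-scoring), with exact 95% intervals; solid lines show whole lists and dashed lines lists of equal length. With whole lists the share fell from 100% to 81.2% for pre-B peaks and from 99.7% to 10.8% for IL7-cultured pro-B peaks, and with equal lengths, which force nearly equal totals, the lowest deciles stood at 43.9% and 45.1%.

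The shares of single chromosomes are given by the lowest and the highest of the 19. These were picked as extremes, so the gap between their intervals is no measure of variation between chromosomes. The pre-B-only share lay between 3.16% on chromosome 14 (2.34 to 4.17) and 5.57% on chromosome 19 (4.40 to 6.94). The IL7-only share lay between 37.6% on chromosome 17 (35.9 to 39.2) and 46.1% on chromosome 12 (44.3 to 47.9).

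List-specific peaks were narrower than shared ones in each list as a whole. Pre-B-only peaks had a median width of 470 bp (quartiles 341 and 592), against 624 bp (480 and 784) for shared pre-B peaks. IL7-only peaks had a median width of 325 bp (270 and 386), against 462 bp (381 and 585) for shared IL7-cultured peaks. Width followed rank within both lists. At the same rank the difference of IL7-only peaks was mostly smaller. Most pre-B-only peaks lay in the eighth to lowest deciles, where they were slightly wider than shared peaks. In the sixth pre-B decile the medians were 474 bp for 43 pre-B-only peaks and 589 bp for shared peaks. In the eighth they were 506 bp for 240 and 500 bp, and in the ninth 474 bp for 475 and 459 bp. In the lowest-scoring decile they were 451 bp for 769 and 435 bp. In the fourth IL7-cultured decile they were 410 bp for IL7-only and 450 bp for shared peaks, and in the lowest-scoring one 282 bp and 302 bp. Where 1 peak of one list overlapped just 1 of the other, which gave 37684 pairs, the pre-B peak was the wider in 75%, with a median ratio of 1.25, and the midpoints lay a median of 54.5 bp apart. The positions of paired peaks in their lists had a Spearman correlation of 0.840 across pairs. Paired peaks share their sequence and the way MACS scores, and peaks are no replicates.

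The 5 shared sites that ranked best in both lists lay near Olfr94, Pik3c2b, Exoc1, Dhx8 and Rfng. Pik3c2b encodes a class II phosphoinositide 3-kinase, Exoc1 a subunit of the exocyst, Dhx8 an RNA helicase of the spliceosome and Rfng a glycosyltransferase that modifies Notch. Each outscored at least 99.7% of either list. All 5 overlapped Rad21 peaks of pre-B cells and of DP thymocytes, and 4 of them, all but the Exoc1 site, also those of DN thymocytes. The Dhx8 site was the one at a promoter, and the Exoc1 site lay in an intron, 2175 bp from the nearest start.

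Pre-B-only peaks were found at promoters more often than shared peaks. A promoter peak is one within 1 kb of an annotated start, and such windows make up 4.14% of the bases compared. Promoters held 515 of the 1643 pre-B-only peaks (31.3%, 29.1 to 33.7), 17.6% of shared pre-B peaks (17.3 to 18.0) and 17.6% of IL7-only peaks (17.2 to 18.1). In the lowest-scoring pre-B decile alone, 29.3% of pre-B-only and 18.2% of shared peaks lay at promoters, so the difference was also present at the same rank. For IL7-only peaks the equal overall shares hid differences in both directions. In the best-scoring IL7-cultured decile 84.2% of 19 IL7-only and 22.1% of shared peaks lay at promoters, and in the lowest-scoring one 17.7% and 27.6%. With equal list lengths the shares were 26.9% for pre-B-only (25.8 to 28.0) and 16.5% for IL7-only peaks (15.5 to 17.4). Intergenic sequence held 29.5% of pre-B-only (27.3 to 31.7) and 40.1% of IL7-only peaks (39.5 to 40.7). The share of peaks over 100 kb from any coding start was 14.2% for IL7-only (13.8 to 14.6), 8.01% for shared IL7-cultured (7.74 to 8.27) and 7.36% for pre-B-only peaks (6.15 to 8.74).

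**Figure D2:**
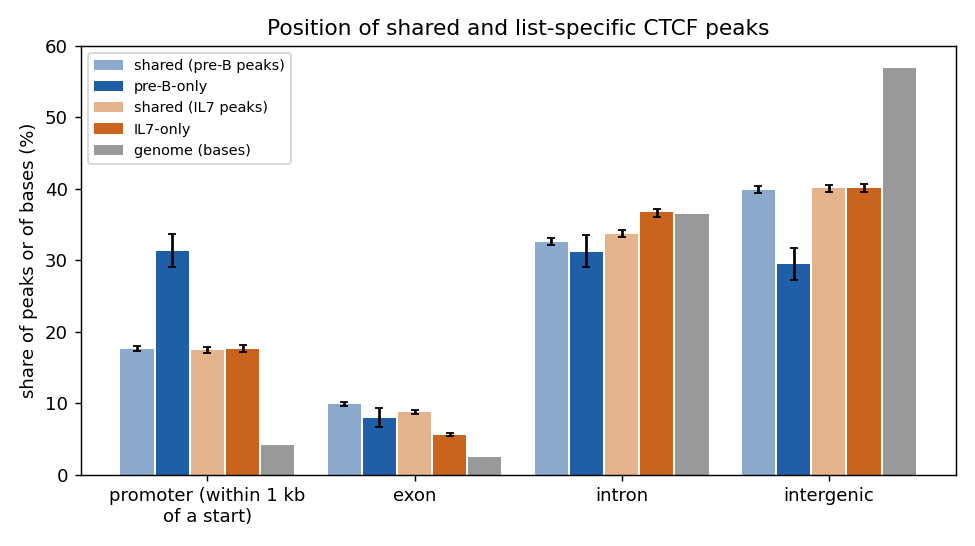
Share of peaks (y axis, %, exact 95% intervals) at promoters, exons, introns and intergenic sequence for shared and list-specific CTCF peaks, beside the share of genome bases in grey. The pre-B-only bar stands at 31.3% at promoters, where the other 3 classes stand between 17.4% and 17.6%, and is the lowest of the 4 classes in intergenic sequence.

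The 8 best-ranked pre-B-only peaks all overlapped a pre-B Rad21 peak and none overlapped a DN Rad21 peak. They lay in deciles 3 to 5, where shared pre-B peaks overlapped pre-B Rad21 in 76.0% to 93.8% and DN Rad21 in 16.7% to 38.5%. The first lay at chr3:143611807-143612754, 245028 bp from the nearest coding start, that of Lmo4, a LIM-domain cofactor of transcription, and outscored 72.3% of the list. The second lay at chr13:83748292-83748722 in an intron of Mef2c, a transcription factor used in the B lineage, and outscored 63.6%. Mef2c had 3 pre-B peaks and 9 IL7-cultured peaks in the gene or within 10 kb, and 7 of the latter were IL7-only. The third lay on an exon where Fstl3 and Prss57 overlap the peak, and outscored 62.7%. Fstl3 encodes a secreted binder of activin and Prss57 a serine protease of granulocytes.

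The fourth pre-B-only peak lay on an exon of Rilpl1 and outscored 61.7%. The fifth lay at the promoter of the orphan nuclear receptor gene Esrra and outscored 61.2%. The next lay 59746 bp from the start of Dtl, a substrate receptor of a ubiquitin ligase, at the promoter of Unc93b1, which carries nucleic acid sensing Toll-like receptors to endosomes, and 78278 bp from the start of Arid5b, a DNA-binding protein. They outscored 60.1%, 59.3% and 58.2% of the list. After Esrra and Unc93b1, the best-ranked pre-B-only promoter peaks were those of Oxa1l, a mitochondrial membrane insertase, with 57.1%, Trim25, a ubiquitin ligase of antiviral signalling, with 51.9%, Mchr1, a neuropeptide receptor, with 49.5%, and the predicted gene Gm5499 with 46.9%. Of these 6 promoter peaks, that of Gm5499 alone had no pre-B Rad21 peak.

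The best-ranked IL7-only peaks were of another kind, and 7 of the first 8 lay at a promoter. At the promoter of Cacna1a, a neuronal calcium channel gene, the peak chr8:87163075-87163686 outscored 99.2% of the list. The peak in an intron of Slc22a3, an organic cation transporter gene, at chr17:12697106-12697691 also outscored 99.2%. It was the one among the 8 with a GC content near that of other peaks, 50.2% over the 201 bp at its midpoint. The promoters of Fam102b, Zfp746, Mapt, which encodes tau, Neto2, a kainate receptor subunit gene, Arhgap39 and the adhesion gene Sdk1 followed, with peaks that outscored 98.1%, 98.0%, 97.3%, 97.3%, 96.8% and 96.7%. The GC content of the 7 promoter peaks lay between 77.1% and 83.1%, and none of the 8 peaks overlapped a pre-B Rad21 peak. Those of Fam102b, Zfp746, Neto2 and Sdk1 overlapped a DP Rad21 peak.

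High GC content marked the very best-ranked IL7-only peaks. The 51 IL7-only peaks among the best 1 in 5 of the list had a median GC content of 78.1%, and further down few IL7-only peaks were as GC-rich. This was noticed in the data and is given as a description. In the better-scoring 50% of the IL7-cultured list, 169 of 320 peaks with a GC content of 75% or more were shared (52.8%, 47.2 to 58.4). With GC content read over the whole peak, which few peaks reached, 16 of 78 were (20.5%, 12.2 to 31.2). In the 8 lower GC bins the share lay between 86.8% (83.4 to 89.8), at 70 to 75%, and 94.9% (94.1 to 95.5), at 55 to 60%. The 151 GC-rich IL7-only peaks of that part of the list had a median of 31.0 CpG in 201 bp, and 137 lay at a promoter (90.7%, 84.9 to 94.8). The 169 shared peaks of like GC content were much the same in this, with a median of 27.0 CpG and 90.5% at a promoter (85.1 to 94.5). The 2507 other IL7-only peaks there had a median GC content of 47.3% and a median of 2.00 CpG, and 12.8% lay at a promoter (11.5 to 14.2).

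GC-rich peaks were rarest in both pre-B lists. Peaks with a GC content of 75% or more made up 0.198% of the pre-B CTCF list (81 peaks) and 1.17% of the IL7-cultured list (800 peaks). They made up 0.0372% of pre-B Rad21 peaks, 0.338% of DN Rad21 peaks and 1.50% of DP Rad21 peaks. Of the 151 peaks, 9 overlapped a pre-B Rad21 peak (5.96%, 2.76 to 11) and 67 a DP Rad21 peak (44.4%, 36.3 to 52.7). Of the 169 shared GC-rich peaks, 38.5% overlapped a pre-B Rad21 peak (31.1 to 46.2) and 74.6% a DP Rad21 peak (67.3 to 80.9). The pre-B CTCF and Rad21 lists rest on 1 shared input. The part of GC content in the difference between the CTCF lists was not tested.

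**Figure D3:**
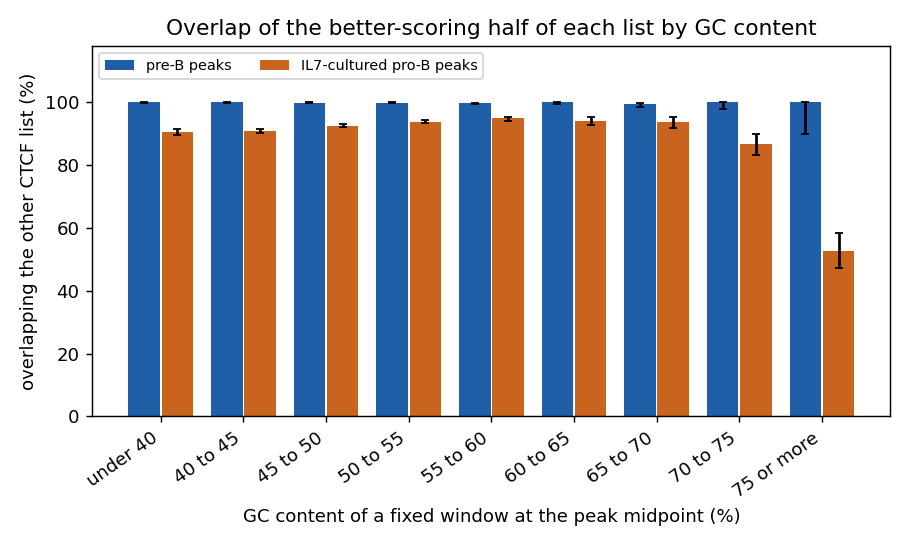
Share of the better-scoring 50% of each CTCF list that overlapped the other list (y axis, %, exact 95% intervals) by GC content of the 201 bp at the peak midpoint (x axis, %). IL7-cultured pro-B peaks stand between 86.8% and 94.9% in the 8 lower bins and at 52.8% in the bin of 75% or more.

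Pre-B Rad21 separated the list-specific peaks of the 2 lists. A pre-B Rad21 peak overlapped 64.9% of shared pre-B peaks (64.4 to 65.4), 34.9% of pre-B-only peaks (32.6 to 37.2) and 4.99% of IL7-only peaks (4.74 to 5.25). Pre-B-only peaks rank low, and among pre-B peaks of the same decile they overlapped pre-B Rad21 more often than shared peaks did. In the sixth decile the shares were 81.4% of 43 pre-B-only and 63.4% of shared peaks, in the eighth 42.5% of 240 and 31.2%, and in the lowest 25.7% of 769 and 16.3%. IL7-only peaks stayed between 3.69% and 6.84% in every decile from the second down, where shared IL7-cultured peaks lay between 32.2% and 88.5%. The pre-B Rad21 library comes from the same cells and was called against the same input as the pre-B CTCF library, and the part of these in the overlap was not tested.

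Thymocyte Rad21 overlapped shared peaks most often as well. A DP Rad21 peak overlapped 22.7% of pre-B-only peaks (20.7 to 24.8), 11.8% of IL7-only peaks (11.4 to 12.1) and 53.3% of shared pre-B peaks (52.8 to 53.8). In the sixth pre-B decile DP Rad21 overlapped 20.9% of 43 pre-B-only and 43.0% of shared peaks, and in the last 3 deciles it overlapped both about equally, with 24.6% and 25.9% in the eighth decile and 20.7% and 18.7% in the lowest. In the IL7-cultured list it overlapped 10.6% of IL7-only and 28.3% of shared peaks of the lowest decile. A DN Rad21 peak, from the shortest Rad21 list, overlapped 0.730% (0.378 to 1.27), 0.813% (0.712 to 0.924) and 23.1% (22.7 to 23.5). At promoters, DP Rad21 overlapped 30.1% of IL7-only peaks (28.9 to 31.4) and pre-B Rad21 9.36% (8.57 to 10.2). Away from promoters these shares were 7.83% (7.49 to 8.18) and 4.06% (3.81 to 4.32).

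**Figure D4:**
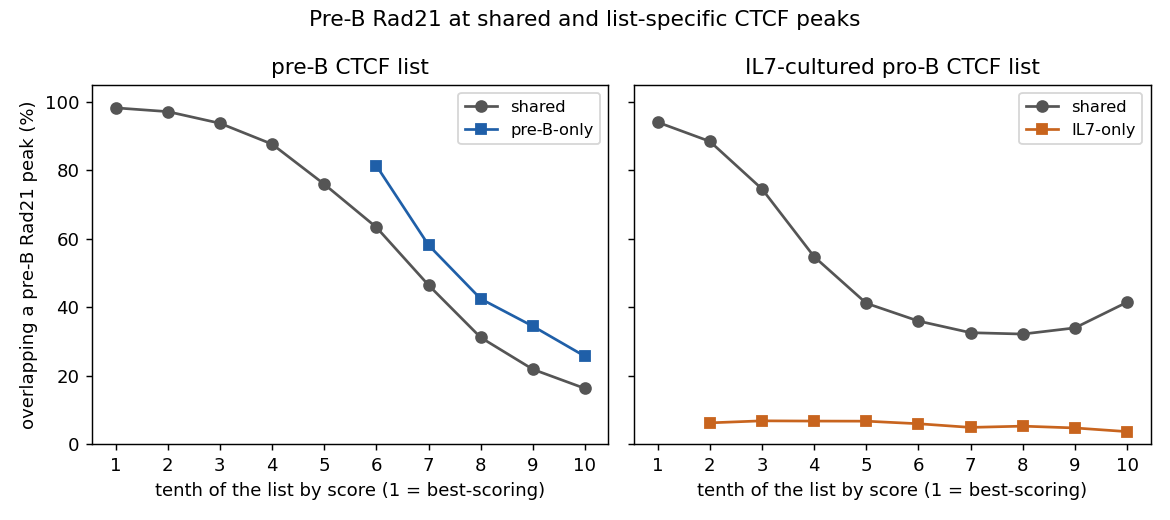
Share of CTCF peaks that overlapped a pre-B Rad21 peak (y axis, %) by decile of score (x axis, 1 is the best-scoring), for shared peaks in grey and list-specific peaks in colour, where a decile held at least 20 of them. Pre-B-only peaks lie above shared pre-B peaks in each decile drawn, and IL7-only peaks lie between 3.69% and 6.84%.

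The CTCF consensus was found less often in list-specific peaks. With at most 2 mismatches it matched 49.4% of shared pre-B peaks (48.9 to 49.9), 21.7% of pre-B-only peaks (19.7 to 23.7) and 26.2% of IL7-only peaks (25.7 to 26.7). At the same width, 2000 bp to the side, matches were found in 9.31%, 6.15% (5.03 to 7.42) and 4.24% (4.01 to 4.48). Since pre-B peaks are wider, the search was repeated on 201 bp at each midpoint, which gave 35.2%, 15.0% and 24.1%. Among peaks of the same rank the deficit remained for pre-B-only peaks, with 19.5% against 30.9% of shared peaks in the lowest decile. From the third decile down, IL7-only peaks matched about as often as shared IL7-cultured peaks of the same rank, with 56.4% against 51.4% in the third decile, 30.5% against 31.7% in the sixth and 23.9% against 23.0% in the ninth. The GC-rich strong IL7-only peaks described above matched in 54.3% (46.0 to 62.4) and the shared GC-rich peaks in 65.7% (58.0 to 72.8). In the same part of the list, 36.1% of the other IL7-only peaks (34.2 to 38.0) and 53.4% of the other shared peaks (52.9 to 54.0) did. The consensus is itself GC-rich and no background of like GC content was computed, so these sets cannot be ranked as CTCF sites. Their ranks were not matched either. A match describes letters in the window and not occupancy.

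Shared sites also differed in relative strength. Each pair was placed by its position among all pairs of its list, and 50.7% of the 37684 pairs had positions within 10 percentage points of each other. Over 50 points higher in pre-B cells were 106 pairs, among them intronic sites of Foxp1, a transcription factor needed in early B cells, and of Msi2, an RNA-binding protein of progenitors. The Foxp1 site outscored 83.0% of the whole pre-B list and 27.0% of the whole IL7-cultured list, and the Msi2 site 96.4% and 49.8%. Whole lists also hold unpaired peaks, so positions in them need not differ by 50 points. Of these 106 pairs, 96.2% overlapped a pre-B Rad21 peak (90.6 to 99.0). Over 50 points higher in IL7-cultured cells were 141 pairs, of which 20.6% overlapped one (14.2 to 28.2) and 49.6% lay at promoters (41.1 to 58.2), such as those of Fcho2 and Anp32b. The Fcho2 peak outscored 96.0% of the IL7-cultured list and 6.04% of the pre-B list, and the Anp32b peak 95.9% and 6.90%. Pairs higher in pre-B cells rank high in the pre-B list by construction and those higher in IL7-cultured cells low. Shared pre-B peaks in general overlapped pre-B Rad21 in 87.7% to 98.3% in the best 4 deciles and in 16.3% to 46.5% in deciles 7 to 10. Of the pairs within 10 points, 67.3% overlapped one (66.6 to 68.0) and 16.4% lay at promoters (15.9 to 16.9). Foxp1, Msi2, Fcho2 and Anp32b were chosen for these values.

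Most genes had the same CTCF status at their promoters in both cell types. Of 21281 coding genes, 5494 had a promoter peak in both lists (25.8%), 421 in pre-B cells alone (1.98%), 2947 in IL7-cultured cells alone (13.8%) and 12419 in neither (58.4%). With equal list lengths the order turned, with 4543 genes in both (21.3%), 1372 in pre-B cells alone (6.45%) and 663 in IL7-cultured cells alone (3.12%). Within the gene or 10 kb of it, 1640 genes had a pre-B-only peak (7.71%) and 12320 an IL7-only peak (57.9%). Among the genes with the most pre-B-only peaks were Gm20388, a gene model of 4435 kb, with 15, Ano6, a phospholipid scramblase gene, with 4, and Epb4.1l1 and Rbm38 with 3 each, in a tie with further genes. At Epb4.1l1, all 5 IL7-cultured peaks were shared and 3 of 8 pre-B peaks were not. The 5 with the most IL7-only peaks were Gm20388 with 141, Fgfr2, here a gene model of 3009 kb, with 58, Rbms3 with 22, and Sdk1 and Ezh2 with 21 each. Long gene models hold many peaks of any kind, and Ezh2 was the shortest of the 5.

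Ezh2, the methyltransferase of Polycomb repressive complex 2, spans 65.1 kb on chromosome 6 and had 22 IL7-cultured peaks and 1 pre-B peak. Of its 21 IL7-only peaks, 20 overlapped an Ezh2 exon, although exons make up 9.52% of the gene's bases. In all, 19 of the 20 annotated exons carried an IL7-cultured peak and none a pre-B peak. Among 10124 coding genes with at least 8 exons, this was the highest share of exons with a peak in that list, and the next was 72.7%, at Pcdhgc5. The 21 peaks had a median width of 290 bp and outscored a median of 47.1% and at most 88.2% of the list. A consensus match was found in 1 of them, and 0 overlapped a pre-B Rad21 peak, 0 a DN Rad21 peak and 3 a DP Rad21 peak. The single site found in both lists was intronic. The cause of this pattern was not tested. The peaks at Ezh2 were left in the counts, and without them 58.6% of IL7-cultured peaks were shared, as with them.

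**Figure D5:**
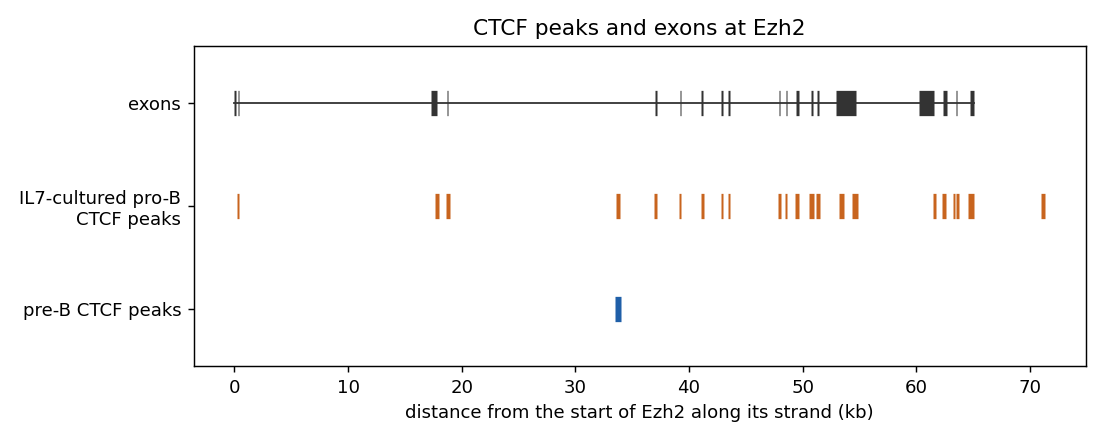
Exons of Ezh2 (top) and the CTCF peaks of IL7-cultured pro-B cells (middle) and pre-B cells (bottom), by distance from the start of the gene along its strand (x axis, kb), drawn to scale. IL7-cultured peaks stand on 19 of the 20 exons, and the 1 pre-B peak stands in an intron.

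Genes of B-cell development, of other lineages, imprinted genes and Hox clusters were examined by 12 lists. The share of pre-B-only peaks at list genes ran from 0 of 6 pre-B peaks at the Hoxb cluster to 4 of 31 at genes of CTCF and cohesin (12.9%, 3.63 to 29.8), and in all 12 lists its interval held the 4.03% of all peaks. The share of IL7-only peaks ran from 25.0% at the Hoxb cluster (3.19 to 65.1) to 52.2% at genes of IL7 receptor and JAK-STAT signalling (39.8 to 64.4), and in all 12 lists its interval held 41.4%. With equal list lengths, 3 intervals did not hold the background. Then 34 of 131 pre-B peaks at B-lineage transcription factors (26.0%, 18.7 to 34.3) and 17 of 65 at cell cycle genes (26.2%, 16.0 to 38.5) were pre-B-only, against 15.2% of all, and 0 of 29 IL7-cultured peaks at adhesion and homing genes were IL7-only (at most 11.9%), against 14.6% of all. Over all 21281 coding genes, 4217 carried an IL7-only peak at the promoter (19.8%, 19.3 to 20.4) and 527 a pre-B-only peak (2.48%, 2.27 to 2.69). With equal list lengths these were 903 (4.24%, 3.98 to 4.52) and 1642 genes (7.72%, 7.36 to 8.08), so which kind was the more common depended on list length. At equal lengths the interval of each of the 12 lists held these shares for both kinds of promoter peak. In whole lists the interval for IL7-only promoter peaks lay above 19.8% at the pre-B cell receptor, JAK-STAT, B-lineage and cell cycle lists. It held 19.8% at all other lists. The gene counts that follow are for whole lists unless stated. Single genes are named below because they carried a list-specific peak. A start is that of any annotated transcript, so a promoter peak can lie inside the gene. A promoter with an IL7-only peak can also hold a pre-B peak. Genes with an IL7-cultured but no pre-B promoter peak numbered 4 in JAK-STAT signalling, 10 among B-lineage factors and 6 in the cell cycle. They numbered 1 among survival genes, 1 among V(D)J genes, 2 among CTCF and cohesin genes and 4 among other lineages.

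The surrogate light chain genes, whose products pair with µ in the pre-B cell receptor, each had an IL7-only peak at the promoter. That of Igll1, at chr16:16863833-16864454, outscored 56.7% of the list, that of Vpreb1 9.33% and that of Vpreb2 11.3%. None of the 3 overlapped a Rad21 peak. Vpreb1 and Vpreb2 are near-identical copies, and reads mapping to up to 3 places were kept, so their peaks may draw on the same reads. In the list of pre-B cell receptor signalling, 52 of 127 IL7-cultured peaks were IL7-only (40.9%, 32.3 to 50) and 6 of 79 pre-B peaks were pre-B-only (7.59%, 2.84 to 15.8). The promoters of 13 of the 21 genes of that list held an IL7-only peak (61.9%, 38.4 to 81.9), beside 19.8% of all coding genes. Beyond the surrogate light chain genes these were the promoters of Cd79b, Lyn, Fyn, Blk, Bank1, Plcg2, Pik3cd, Cd22, Ptprc and Slc39a10. With equal list lengths that of Igll1 was the 1 left of the 13. Over whole lists, 10 genes of that list had an IL7-cultured but no pre-B promoter peak. No promoter of that list held a pre-B-only peak in whole lists, and with equal list lengths that of Bank1 did. In whole lists, pre-B-only peaks lay in introns of Plcg2, Vav1 and Pik3ap1, on an exon of Ptprc and near Vpreb3. They outscored 10.7% of the list at Plcg2, 8.48% at Vav1, 7.40% and 6.82% at Pik3ap1, 4.09% at Ptprc and 6.04% near Vpreb3.

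At genes of IL7 receptor and JAK-STAT signalling, 36 of 69 IL7-cultured peaks were IL7-only and 4 of 36 pre-B peaks were pre-B-only (11.1%, 3.11 to 26.1). IL7-only promoter peaks were found at 7 of 15 genes (46.7%, 21.3 to 73.4, beside 19.8% of all coding genes). These were Stat3, Socs2, Cish, Pim1, Ptpn6, Crlf2 and Tslp, and with equal list lengths 2 were left, Pim1 and Ptpn6. The strongest peak at the start of Pim1, a kinase gene induced by STAT5, outscored 51.7% of the list and overlapped a pre-B Rad21 peak. At Cish, a feedback inhibitor of cytokine signalling, the promoter peak outscored 38.3%. Il7r itself had no peak of either list in the gene or within 10 kb. Pre-B-only peaks lay in introns of Jak1 and Socs2, where they outscored 23.4%, 11% and 5.53% of the list, and at the promoter of Emg1 beside Ptpn6, with 24.3%.

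Among B-lineage transcription factors, 98 of 231 IL7-cultured peaks were IL7-only (42.4%, 36.0 to 49.1) and 10 of 131 pre-B peaks were pre-B-only (7.63%, 3.72 to 13.6). A pre-B-only promoter peak was found at Klf2, a regulator of lymphocyte quiescence and traffic, where it outscored 25.0% of the list and overlapped pre-B Rad21, and at Sox4, needed for pro-B cell survival, with 7.42%. Klf2 had no IL7-cultured peak in the gene or within 10 kb. With equal list lengths the promoters of Tcf4, Ikzf1, Ikzf3 and Nfkb1 also held a pre-B-only peak. IL7-only promoter peaks were found at 14 of 30 genes (46.7%, 28.3 to 65.7, beside 19.8% of all coding genes). These genes were Ebf1, Tcf12, Foxo1, Ikzf1, Irf4, Spib, Bach2, Bcl6, Myb, Ets1, Runx1, Id2, Id3 and Rel. The peaks of Bach2 (at a start inside the gene), Foxo1 and Bcl6 outscored 48.3%, 46.3% and 45.2% of the list, and these 3 were left with equal list lengths. The 2 at Ebf1, the factor that specifies the B lineage, outscored 9.20% and 7.48%. Ebf1 had 19 IL7-cultured peaks, 10 of them IL7-only, and 8 pre-B peaks, all shared. Pax5 had 12 pre-B peaks, all shared, and 4 IL7-only peaks among 16.

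Among genes of V(D)J recombination and end joining, 4 of 38 pre-B peaks were pre-B-only (10.5%, 2.94 to 24.8). That at the promoter of Lig4, the ligase that joins the broken ends, outscored 9.22% of the list. Those within or near Rag1, Dntt and Dclre1c outscored 29.5%, 14.1% and 2.60%. Rag1 itself is disrupted in RAG1-/- mice. IL7-only promoter peaks were found at 3 of 15 genes, Xrcc6, Atm and Hmgb1. With equal list lengths that of Atm was left, and the promoters of Xrcc6, Lig4 and Hmgb1 held a pre-B-only peak. Among survival genes, the pre-B-only promoter peak was that of Pmaip1, which encodes the pro-apoptotic protein NOXA, with 4.00%, and IL7-only promoter peaks were found at 3 of 12 genes, Mcl1, Bcl2l11 and Bbc3. The last 2 encode the pro-apoptotic proteins BIM and PUMA, and their peaks outscored 57.2% and 61.2%.

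Of 25 cell cycle genes, 10 carried an IL7-only promoter peak (interval 21.1 to 61.3%, beside 19.8% of all coding genes), namely Ccnd1, Ccnd3, Cdk4, Ccne2, E2f1, E2f3, Cdkn1b, Cdkn2a, Myc and Btg2, and none a pre-B-only one. The peak of Cdkn2a, a locus that restrains proliferation, outscored 58.0% and that of Myc 24.7%, and with equal list lengths 2 of the 10 were left, Ccne2 and Cdkn2a. The promoters of Ccnd2, Cdk6 and Ccnb1 held a pre-B-only peak with equal list lengths. In whole lists, pre-B-only peaks lay in introns of E2f2 and Rb1 and near Btg2, with 17.7%, 9.24% and 28.8%. Of the 12 genes of CTCF and cohesin, Ctcf, Smc3 (at a start inside the gene), Pds5a and Cdca5 carried an IL7-only promoter peak (33.3%, 9.92 to 65.1). That of Ctcf itself, at chr8:108160356-108160985, outscored 93.0% of the list and had a GC content of 77.6%, and that of Pds5a, a cohesin regulator, outscored 89.6% with 82.6%. Pre-B-only peaks in introns of Ctcf and of Stag1, a cohesin subunit gene, outscored 18.6% and 23.3% of the pre-B list, and the 2 near Cdca5 12.4% and 11.8%.

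Genes of other lineages carried list-specific peaks too. IL7-only promoter peaks were found at 8 of 23 genes (34.8%, 16.4 to 57.3, beside 19.8% of all coding genes), Gata3, Bcl11b, Notch1, Lck, Cebpa, Epor, Kit and Flt3. Those of Bcl11b and Gata3, both factors of T cell development, outscored 62.5% and 53.9% at best. With equal list lengths those of Gata3, Bcl11b and Cebpa were left. No promoter of this list held a pre-B-only peak, and those within or near Notch1, Flt3 and Csf1r outscored 2.18%, 4.04% and, at best, 10.0%. Of the 14 adhesion and homing genes, Itgb1 and Cxcr5 held an IL7-only promoter peak (14.3%, 1.78 to 42.8), and the pre-B-only peak, near Cd2, outscored 17.8%. At 16 imprinted genes, the promoters of Peg3, Mest, Gnas and Zim1 held an IL7-only peak (25.0%, 7.27 to 52.4). With equal list lengths that of Zim1 was left, and those of Igf2r and Gnas held a pre-B-only peak. In whole lists Igf2r, which encodes the receptor that clears IGF2, had the 2 pre-B-only peaks, 1 of them at a start inside the gene with 11.8%. At the Hox clusters, a pre-B-only peak with 0.630% lay at Hoxa3, and IL7-only promoter peaks at Hoxa3, Hoxa5, Hoxa11 and Hoxb7, the last of which outscored 58.4%. With equal list lengths that of Hoxb7 was left, and Hoxa3, Hoxa9 and Hoxa10 held a pre-B-only promoter peak.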

How the data were processed

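The CTCF lists of both cell types, and 3 Rad21 lists (pre-B, DN, DP), hold 1 library per condition, made by ChIP-seq. Before alignment to mm9 with Bowtie, which kept reads placed at up to 3 positions, the authors discarded duplicates and trimmed adapters. They called peaks against input with MACS 1.4.2 at an FDR of at most 1%. The Bowtie version was 0.12.9 per the labels, and the study's methods name another. The deposited lists hold positions and a score for each peak, which MACS derives from its p-value. Scores were tied at 3100 for 86 pre-B and 427 IL7-cultured peaks.

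Receptor loci were clusters of at least 3 annotated receptor genes, taken with 100 kb on either side. Genes came from GENCODE vM1 on the same build. Overlap of 1 bp or more counted as shared, shares carry exact 95% intervals, and GC content was read over 201 bp at the midpoint. Genes or peaks named are the 8 best-ranked list-specific peaks, the 6 best-ranked at promoters, the 5 genes with most list-specific peaks, the 5 best-ranked shared sites, and, for each list, genes with a list-specific peak at the promoter or, where there were none, in the gene or within 10 kb, with ties in order of position. 1 gene that met this rule is not reported here. The members and lists were chosen with earlier results of these data known. The GC bins and the Ezh2 counts were added after seeing the data. On simulated data, 3000 of 3000 shared peaks and 1000 of 1000 planted consensus sites were recovered, 0 of 700 others were called shared, and 1904 of 2000 intervals held the true share. Alternatives are given in the closing section. Python 3.11.15 was used with scipy 1.17.1, numpy 2.4.6, matplotlib 3.10.9 and pysam 0.24.0. Depth is unknown, so precision rests on peak counts alone.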

Additional observations from a re-analysis of the deposited data

How the results depend on the processing

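There were 37 alternatives to 15 shares, of which 5 stayed within the exact interval of the reported share. The share of pre-B peaks overlapping an IL7-cultured peak, 96.0%, became 84.8% with equal list lengths and 96.4% when peaks up to 500 bp apart counted. The share of IL7-cultured peaks overlapping a pre-B peak, 58.6%, became 85.4% with equal list lengths, 64.8% with scores of at least 100, 58.2% with an overlap of at least 50% of the shorter peak, and 60.7% with gaps of up to 500 bp. Promoter shares of shared pre-B, pre-B-only, shared IL7-cultured and IL7-only peaks became 37.6%, 48.3%, 37.7% and 35.3% within 5 kb of a start, and 16.6%, 26.9%, 16.1% and 16.5% with equal list lengths. Consensus shares in that order became 16.6%, 2.50%, 16.2% and 5.28% with at most 1 mismatch, 35.2%, 15.0%, 37.2% and 24.1% in 201 bp at the midpoint, and 52.3%, 25.9%, 51.5% and 33.5% with equal list lengths. Pre-B Rad21 shares became 69.3%, 32.4%, 69.3% and 6.25% with equal list lengths. The share of GC-rich IL7-cultured peaks that were shared, 52.8%, became 20.5% (16 of 78 peaks) with GC content over the whole peak and 72.9% with a limit of 70%, both chosen after seeing the data. Pre-B-only peaks had the highest promoter share both within 5 kb of a start and with equal list lengths, and IL7-only peaks the lowest pre-B Rad21 share with equal list lengths. The cause of these shifts was not tested.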

Other observations

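Numbers of list-specific peaks differed between regions. In windows of 500 kb, of which 4434 held a CTCF peak, the median number of IL7-only peaks was 5. The highest was 35, in the window of the protocadherin beta cluster on chromosome 18 (37500001 to 38000000), which held 51 IL7-cultured peaks (68.6% IL7-only, against 41.4% of all) and 16 pre-B peaks, all 16 shared. Protocadherin beta genes are closely related copies that encode cell adhesion proteins of neurons, and since reads mapping to up to 3 places were kept, single peaks there are uncertain. The window next in number, around Rara, Thra and Top2a on chromosome 11, held 30 IL7-only peaks of 73, or 41.1%, which is near the share of all peaks. It was followed by 29 of 58 around Socs3 and Birc5 on chromosome 11 and 29 of 67, or 43.3%, around Pim1 on chromosome 17. Pre-B-only peaks were found in 1102 windows, and 128 held 3 or more. The most, 7, lay in a window of chromosome 2 with Phactr3 and Sycp2, where 13 of 20 pre-B peaks were shared.

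Some list-specific peaks lay close to a peak of the other list without touching it. Of the 1643 pre-B-only peaks, 171 lay within 500 bp of an IL7-cultured peak, and of the 28411 IL7-only peaks, 1444 lay within 500 bp of a pre-B peak. A pre-B peak spanned 2 IL7-cultured peaks in 1192 cases, and an IL7-cultured peak spanned 2 or more pre-B peaks in 187.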
